A study of Mus musculus with 4 samples.

Results

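The 10 genes described here encode enzymes and proteins that remove superoxide and peroxides or keep their removal going, namely *Sod1*, *Sod2*, *Cat*, *Gpx1*, *Gpx4*, *Prdx1*, *Prdx2*, *Txn1*, *Txnrd1* and *Txnip*. They were taken by name, with earlier results of these arrays known, and each was represented by its brightest probe set. All 10 had a probe set of their own among 19938 annotated genes, and all 10 were bright enough to be tested, with 14953 genes tested in all. Naive CD8+ T cells came from spleen and lymph nodes of wild-type C57BL/6 mice and were cultured for 2 days. CTL cultures (cytotoxic T lymphocytes) received IL-2 and an antibody that blocks IFN-γ. Tc17 cultures, which produce IL-17, had these same additions plus IL-6 and TGF-β. Per the methods, priming of Tc17 cells was through CD3 and CD28, and the mice were young adults matched by age and sex. Each group had 2 arrays, 4 in all, and the study used them to define gene signatures of either cell. The labels call the arrays biological replicates without saying which animals they came from, so p-values reflect the spread between these samples only. For each gene the limma fit pools that spread with the spread of all genes tested. The pooled part weighs more, with 8.98 degrees of freedom against 2 from the gene itself, and this holds for the SE and intervals too.

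Superoxide leaks from the respiratory chain and is made by NADPH oxidases. Superoxide dismutases turn it into hydrogen peroxide. Catalase then splits the peroxide into water and oxygen, while glutathione peroxidases and peroxiredoxins reduce it to water. Peroxiredoxins are recharged by thioredoxin, and thioredoxin by thioredoxin reductase at the expense of NADPH. TXNIP binds reduced thioredoxin and blocks it, and it also restrains glucose uptake. In T cells hydrogen peroxide serves as a signal after stimulation of the antigen receptor as well as a source of damage. The transcription factor NRF2 is the best known activator of several of these genes, and KEAP1 holds it in check.

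*Txnip* and *Cat* were higher and *Sod2* was lower in Tc17 cells, and the other 7 members did not pass the test. *Txnip* was 2.10-fold higher and *Cat* 1.60-fold higher, while *Sod2* was 1.47-fold higher in CTLs. These calls are limma adjusted p-values under 0.05, adjusted over all 14953 genes tested. In that fit 8.22% of all genes were called higher and 7.44% lower in Tc17 cells, against 2 and 1 of the 10 members. With the arrays centred on their medians the split of all calls moved from 1229 higher and 1113 lower to 990 higher and 1434 lower, and the same 3 members were called. The median log2 difference was -0.02 over the members and 0.02 over all genes tested. Calls among the members thus went both ways at the RNA level, and whether their number differs from the shares of all genes was not tested.

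**Figure D1:**
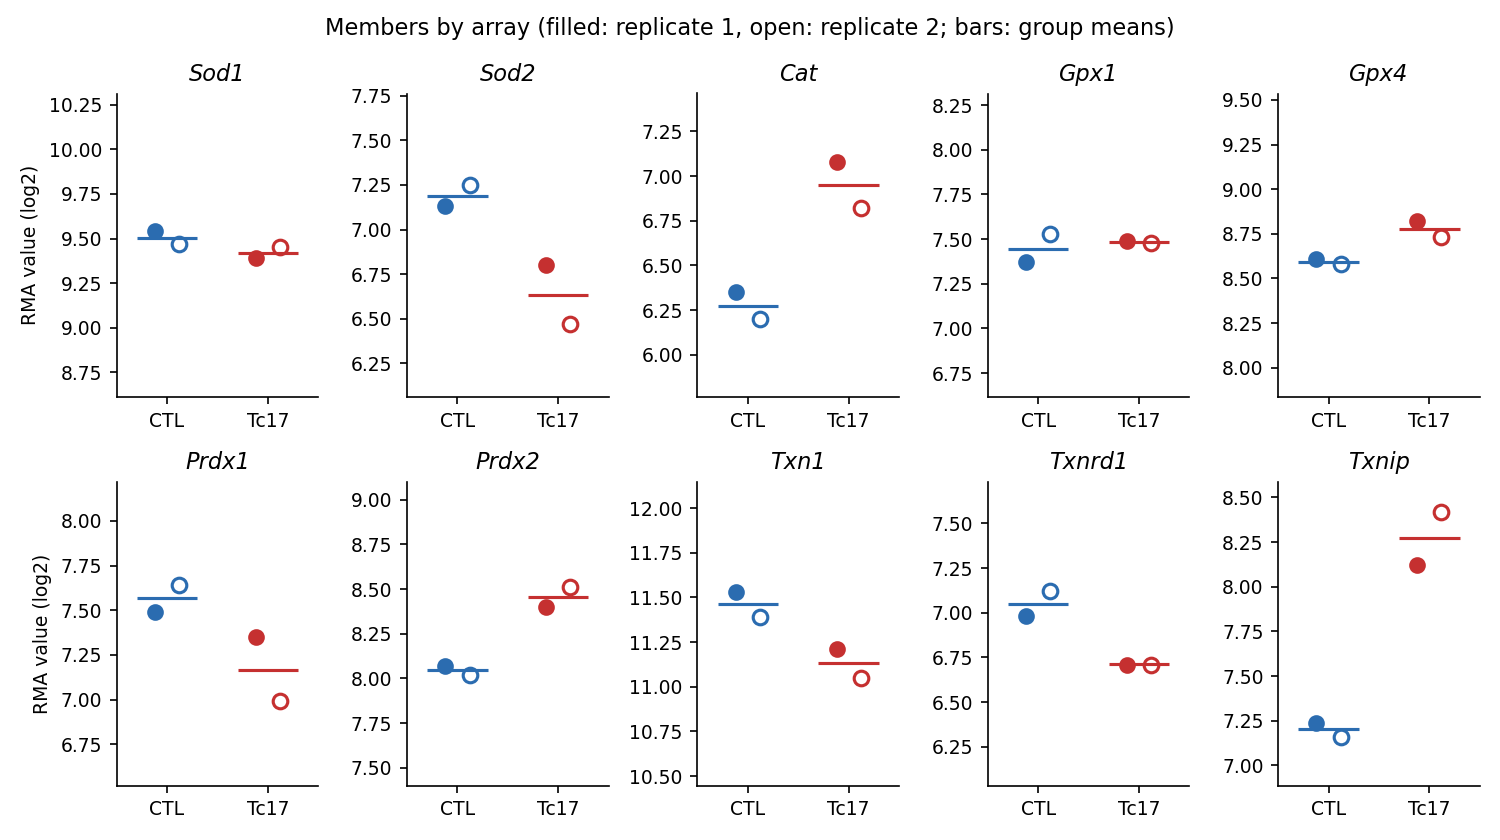
Deposited RMA values (log2, vertical axis) of the 10 members in each array, 1 panel per gene. Blue is CTL and red Tc17, filled circles are replicate 1, open circles replicate 2 and bars group means, and every panel spans the same height. *Txnip* lay at 7.16 to 7.24 in CTLs and at 8.12 to 8.42 in Tc17 cells, whereas the *Gpx1* arrays of the groups overlapped. Heights of different genes cannot be compared, since probe sets differ in brightness.

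Array by array, most members separated the groups, but so did most genes. Both Tc17 arrays lay above both CTL arrays for *Cat*, *Gpx4*, *Prdx2* and *Txnip*, which is 4 of 10, against 29.6% of all genes tested. Both lay below for *Sod1*, *Sod2*, *Prdx1*, *Txn1* and *Txnrd1*, which is 5 of 10, against 24.8% of all genes. *Gpx1* was the member whose groups overlapped. For *Sod1* the gap between the groups was 0.02 on the log2 scale, so this count also holds very small separations.

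The defining markers of CD8+ T cells were present on all arrays. The T cell genes *Cd3d*, *Cd3e*, *Cd3g*, *Cd2*, *Cd8a* and *Cd8b1* averaged 8.95 and 9.01 in the CTL arrays and 9.45 and 9.50 in the Tc17 arrays. These markers themselves differed, since *Cd3d* (0.73), *Cd3e* (0.86), *Cd3g* (1.00) and *Cd8a* (0.67) were called higher and *Cd2* (-0.46) lower in Tc17 cells. The differences of *Cd3d*, *Cd3e* and *Cd3g* were larger than that of *Cat* (0.67), and that of *Cd3g* was near that of *Txnip* (1.07). *Cd4* was between 2.83 and 3.28, near the array medians of 3.18 to 3.20. Red cells are rich in catalase and peroxiredoxin 2, so their markers bear on the members that were higher. The erythroid genes *Alas2*, *Slc4a1* and *Epb42*, 3 of 8 on the list with a probe set of their own, averaged 2.87 and 2.90 in CTLs against 2.90 and 3.07 in Tc17 cells. None of these 3 was called. Of 4 probe sets shared by several adult globin genes, an alpha globin set was at 3.78 and 3.76 in CTLs and at 4.14 and 3.87 in Tc17 cells, and the other 3 overlapped between the groups, at 2.90 to 4.05. Of 4 macrophage and monocyte markers *Cd68* was higher in Tc17 cells (1.01 on the log2 scale, limma adjusted p = 0.00236), while *Csf1r* was at 2.75 to 3.03, and *Adgre1* and *Lyz2* averaged 2.41 and 2.44, under the level of 2.59 below which genes were not tested. The part of the T cell markers, *Cd68* or alpha globin in any member's difference was not tested. In a bulk culture, fewer cells that carry a transcript and less of it per cell cannot be told apart.

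*Txnip*, the inhibitor of thioredoxin, had the largest difference of the 10. Its values were 7.24 and 7.16 in the CTL arrays and 8.12 and 8.42 in the Tc17 arrays (log2). The lowest Tc17 array was 0.88 above the highest CTL array. The difference was 1.07 ± 0.14 (log2, Tc17 minus CTL, ± SE of the fit, n = 2 per group) with a 95% interval from 0.76 to 1.38 (limma adjusted p = 4.40e-04). It stayed past the threshold in 13 of 13 alternative analyses, with values from 0.92 to 1.22 and limma adjusted p-values from 4.27e-05 to 0.0413.

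Its target and partner enzyme went the other way in all arrays but did not pass the test. *Txn1*, cytosolic thioredoxin itself, was at 11.53 and 11.39 in CTLs and at 11.21 and 11.05 in Tc17 cells. *Txnrd1*, the reductase that recharges it, was at 6.98 and 7.12 in CTLs and at 6.71 in both Tc17 arrays. The difference was -0.33 ± 0.13 for *Txn1* (limma adjusted p = 0.133) and -0.34 ± 0.13 for *Txnrd1* (limma adjusted p = 0.107). Both groups were apart for these genes, by 0.18 and 0.27, and their 95% intervals ran from -0.62 to -0.04 and from -0.62 to -0.06. An interval covers a single gene, while the adjusted p accounts for all genes tested, which is why an interval without 0 can go with a difference that is not called. *Txn1* passed when variances were moderated robustly along intensity (limma adjusted p = 0.0187), and its adjusted p lay between 0.0187 and 0.478 in the alternatives.

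A ratio of values within an array cancels any scaling of that array. Relative to the CTL mean, the *Txnip* to *Txn1* ratio was at -0.04 and 0.04 in the CTL arrays and at 1.17 and 1.63 in the Tc17 arrays (log2). The inhibitor thus rose 2.64-fold against its target, with the Tc17 arrays apart from the CTL arrays. In contrast, the *Txnrd1* to *Txn1* ratio was at -0.14 and 0.14 in CTLs and at -0.09 and 0.07 in Tc17 cells, a mean change of -0.01. An exact permutation test of 2 arrays against 2 (two-sided) gave p = 0.333 for the former and p = 1.0 for the latter, and 0.333 is the smallest p it can give. These were 2 of 5 ratios computed.

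Of the superoxide dismutases, the mitochondrial enzyme fell and the cytosolic enzyme hardly differed. *Sod2*, the manganese enzyme of mitochondria, was at 7.13 and 7.25 in CTLs and at 6.80 and 6.47 in Tc17 cells. The difference was -0.56 ± 0.15 (limma adjusted p = 0.0239), and its 95% interval ran from -0.88 to -0.24. *Sod1*, the copper and zinc enzyme of the cytosol, was at 9.54 and 9.47 in CTLs and at 9.39 and 9.45 in Tc17 cells. Its difference of -0.08 ± 0.13 did not pass (limma adjusted p = 0.751), with an interval from -0.36 to 0.19. The *Sod2* to *Sod1* ratio changed by -0.47 (exact permutation p = 0.333), at -0.28 and -0.66 in the Tc17 arrays relative to the CTL mean. *Sod2* no longer passed when CTL replicate 1 (-0.62), CTL replicate 2 (-0.50) or Tc17 replicate 2 (-0.39) was left out and when all rows of the array table were tested (limma adjusted p = 0.174). Over the alternatives its adjusted p lay between 0.0123 and 0.196.

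*Cat* encodes catalase, which breaks down hydrogen peroxide in peroxisomes. It was at 6.35 and 6.20 in CTLs and at 7.08 and 6.82 in Tc17 cells, a gap of 0.47 between the groups. The difference was 0.67 ± 0.14 (limma adjusted p = 0.00706) with a 95% interval from 0.37 to 0.98. Without Tc17 replicate 1 it was 0.54 and not called, and the call was also lost when all rows were tested. Limma adjusted p-values lay between 0.00343 and 0.101 in the alternatives.

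**Figure D2:**
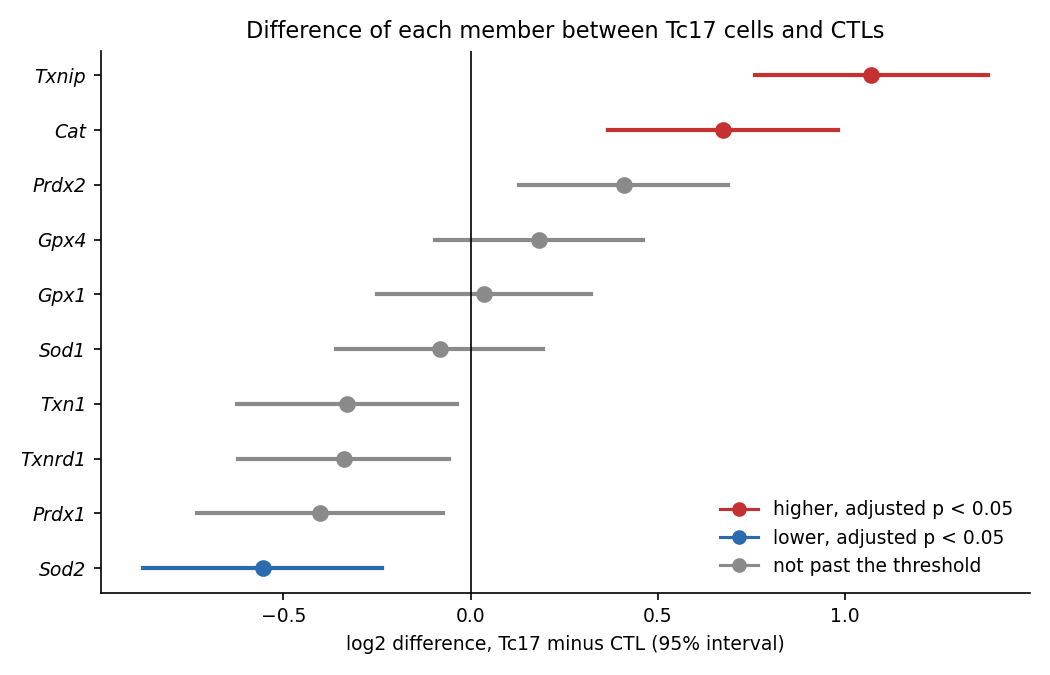
Each member's Tc17 minus CTL value (log2, horizontal axis), with lines for the 95% interval of the limma fit. Red is higher and blue lower at an adjusted p under 0.05, and grey did not pass. *Txnip* (1.07) and *Cat* (0.67) stand on the right and *Sod2* (-0.56) at the lower left, and the intervals of *Gpx4*, *Gpx1* and *Sod1* include 0.

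The glutathione peroxidases, which use glutathione as the electron donor, showed the smallest differences together with *Sod1*. *Gpx4*, the enzyme that reduces lipid peroxides in membranes, was at 8.61 and 8.58 in CTLs and at 8.82 and 8.73 in Tc17 cells. Its groups were apart by 0.13, yet the difference of 0.18 ± 0.13 did not pass (limma adjusted p = 0.413), with an interval from -0.09 to 0.46. A second probe set of *Gpx4* gave 0.19. *Gpx1*, the main cytosolic glutathione peroxidase, was at 7.37 and 7.53 in CTLs and at 7.49 and 7.48 in Tc17 cells. The difference was 0.04 ± 0.13 (limma adjusted p = 0.908) with an interval from -0.25 to 0.32. Its direction was not fixed, since it was -0.03 with median centring and -0.05 without CTL replicate 1. The *Gpx1* to *Gpx4* ratio changed by -0.15 (exact permutation p = 0.333).

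The cytosolic peroxiredoxins, close relatives that reduce peroxide with electrons from thioredoxin, differed in opposite directions. With the brightest probe set of each, neither passed the test. *Prdx2* was at 8.07 and 8.02 in CTLs and at 8.40 and 8.51 in Tc17 cells, and its difference was 0.41 ± 0.13 (limma adjusted p = 0.0515). *Prdx1* was at 7.49 and 7.64 in CTLs and at 7.35 and 6.99 in Tc17 cells, with a difference of -0.40 ± 0.15 (limma adjusted p = 0.102). The 95% intervals, each for a single gene and not adjusted for all genes tested, were 0.13 to 0.69 for *Prdx2* and -0.73 to -0.07 for *Prdx1*. Relative to the CTL mean, the *Prdx1* to *Prdx2* ratio was -0.58 and -1.04 in the Tc17 arrays and -0.09 and 0.09 in the CTL arrays. Its mean change was -0.81, or 1.75-fold (exact permutation p = 0.333).

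Each of these peroxiredoxin genes had a second, dimmer probe set that pointed the same way. For *Prdx2* it read 5.81 and 5.93 in CTLs and 6.50 and 6.28 in Tc17 cells, a difference of 0.52. For *Prdx1* it read 6.58 and 6.53 in CTLs and 6.39 and 5.71 in Tc17 cells, a difference of -0.51. *Prdx2* passed with this dimmer probe set (limma adjusted p = 0.0229), and also with the mean of its probe sets, with cyclic loess, with a filter at the median and with an intensity trend (adjusted p from 0.0158 to 0.241 over the alternatives). *Prdx1* was -0.58 and passed without Tc17 replicate 1, and was -0.22 without Tc17 replicate 2 (adjusted p from 0.0408 to 0.539). Which probe set lies on the gene itself and which on a similar sequence was not determined for *Prdx1*, *Prdx2* or *Gpx4*. Their levels, differences and calls, and the ratios that use them, are therefore uncertain to that extent.

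**Figure D3:**
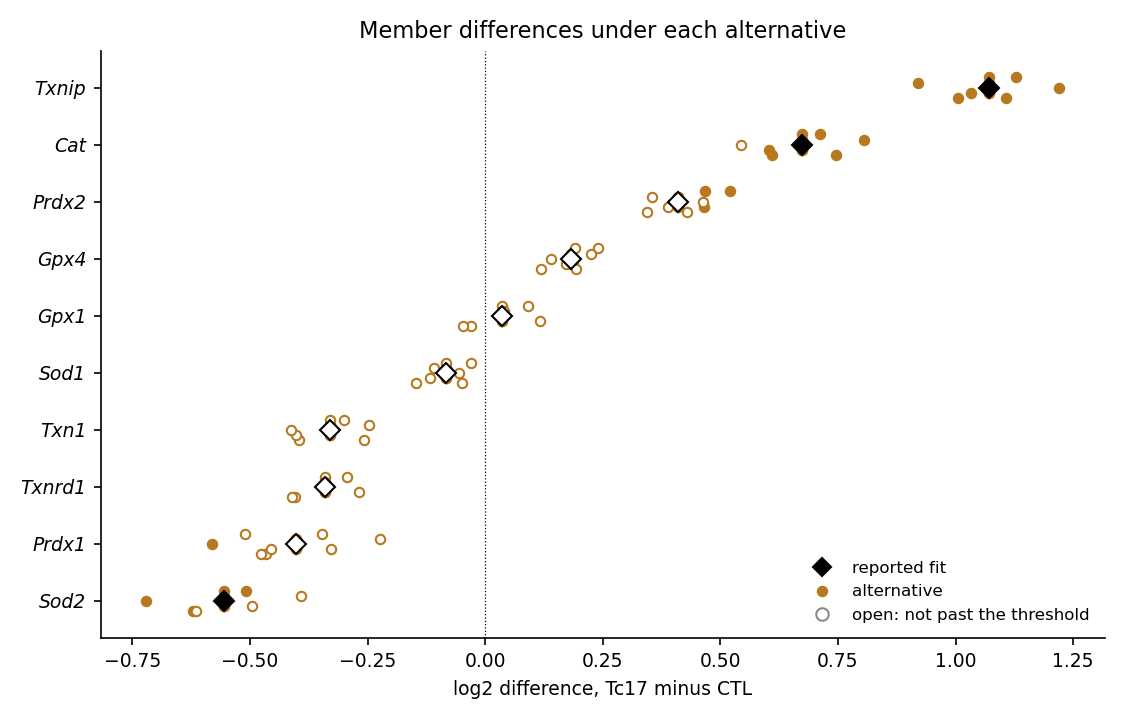
Each member's Tc17 minus CTL value (log2, horizontal axis) in the reported fit (black diamonds) and in 13 alternative analyses (brown circles), filled where the limma adjusted p was under 0.05. Alternatives that left a value in place lie behind its diamond. *Txnip* is filled throughout, and the *Gpx1* values lie on either side of 0, from -0.05 to 0.12. *Cat* is open at 0.54 and also, at the value of its diamond, when all rows were tested.

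The promoters of the members are shown here for the few that hold a binding motif of NRF2 or of forkhead factors, since the former is the usual regulator of this family and the forkhead gene *Foxo1* is described below. RefSeq windows (GRCm38.p6) reach from 250 bases before to 50 bases after a start site, and the 10 members had 15 of them. The core of the antioxidant response element, TGACNNNGC on either strand, was found in 3 of these 15 windows, each of another member, against 12.4% of all 32851 windows. The forkhead motif GTAAACA was found in 1 of the 15, against 3.65% of all windows, and the E box CACGTG in none, against 7.15%. No match of a motif overlapped a match of another in these windows. The stretches below read 5′ to 3′ on the plus strand, with the match in capitals, and the antioxidant elements lie on the opposite strand. They run along chr4:116685430-116685510 for *Prdx1*, chr10:82859078-82859158 for *Txnrd1*, chr16:90220670-90220750 for *Sod1* and chr3:96557800-96557878 for *Txnip*.
Prdx1: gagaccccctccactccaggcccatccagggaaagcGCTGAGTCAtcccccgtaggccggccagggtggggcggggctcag
Txnrd1: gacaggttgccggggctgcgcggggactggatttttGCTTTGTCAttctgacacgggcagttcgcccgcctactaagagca
Sod1: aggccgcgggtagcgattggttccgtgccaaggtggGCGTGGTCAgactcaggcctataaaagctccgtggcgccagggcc
Txnip: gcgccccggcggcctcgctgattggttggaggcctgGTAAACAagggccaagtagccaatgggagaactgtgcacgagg

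The matches began 133, 92, 56 and 121 bases before the start site, in the same order. *Prdx1*, *Txnrd1* and *Sod1*, which hold the antioxidant element, had differences of -0.40, -0.34 and -0.08, and none of the 3 passed the test. *Txnip*, which holds the forkhead motif, differed by 1.07, and a part of *Foxo1* in that was not tested. A match is a description of letters and does not show binding.

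Around the members, other genes of redox metabolism were split as well. Of 101 genes on 8 lists, 97 had a probe set of their own and 88 were tested. Of these, 13 rose and 11 fell in Tc17 cells and 64 did not pass, against 8.22% and 7.44% of all genes tested. Differences were above 0 for 44 genes and below 0 for 44. When all rows were tested, *Mgst2*, *Bach2*, *Fth1* and *Foxo1* were still called and the other named list genes were not.

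**Figure D4:**
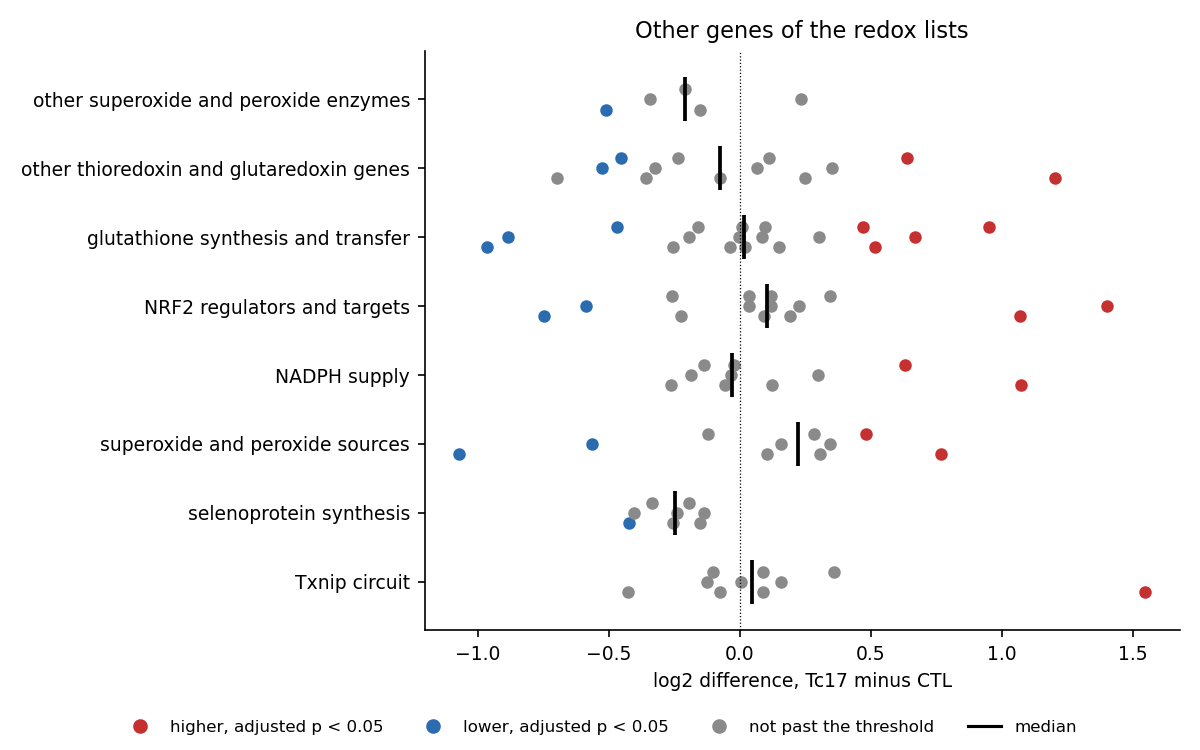
Tc17 minus CTL values (log2, horizontal axis) of the 88 tested genes on 8 lists of redox metabolism. Colour marks genes with a limma adjusted p under 0.05 (red higher, blue lower), grey the rest, and a black bar the median of each list. The 8 genes of selenoprotein synthesis, 1 of them called, lie at -0.42 to -0.14, and *Foxo1* at 1.55 is the point farthest to the right.

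Genes of the peroxide and thioredoxin branches changed in both directions. Among 5 tested relatives of the members, *Prdx4*, the peroxiredoxin of the endoplasmic reticulum, fell (-0.51 ± 0.13, limma adjusted p = 0.0195) and none rose. *Prdx3*, the mitochondrial peroxiredoxin and a neighbour of SOD2 there, was at -0.35 ± 0.15 and did not pass (limma adjusted p = 0.150), and it is named after its value was seen. Of 13 thioredoxin and glutaredoxin genes 2 rose and 2 fell. *Glrx*, the cytosolic glutaredoxin, was at 3.89 and 3.96 in CTLs and at 5.42 and 4.83 in Tc17 cells, a rise of 1.20 ± 0.18 (limma adjusted p = 9.13e-04). *Msrb1*, a selenoprotein that repairs oxidised methionine, rose by 0.64 ± 0.13 (limma adjusted p = 0.00658). *Txnl1*, a thioredoxin-like protein of the proteasome, was lower (-0.53 ± 0.13, limma adjusted p = 0.0176), as was the dim *Txnrd3*, a reductase related to *Txnrd1* (-0.45 ± 0.14, limma adjusted p = 0.0428). The calls of *Prdx4*, *Txnl1* and *Txnrd3* were each lost in 3 of the 4 analyses that leave out an array (-0.54 to -0.44, -0.54 to -0.44 and -0.47 to -0.33), and that of *Msrb1* without CTL replicate 1 (0.56).

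In the glutathione list 4 of 18 tested genes rose and 3 fell. *Slc7a11*, the cystine importer that feeds glutathione synthesis, was at 3.76 and 3.29 in CTLs and at 2.38 and 2.75 in Tc17 cells (-0.97 ± 0.18, limma adjusted p = 0.00362). It was dim, with a Tc17 mean of 2.56 under the filter level, so it was tested only through its CTL values and the size of its difference is uncertain. *Chac1*, which degrades glutathione, was at 5.72 and 6.08 in CTLs and at 5.21 and 4.82 in Tc17 cells (-0.89 ± 0.17, limma adjusted p = 0.00407). Both thus were lower, as was *Gsto1* (-0.47, limma adjusted p = 0.0412). The microsomal transferase gene *Mgst2* rose by 0.95 ± 0.13 (limma adjusted p = 6.86e-04) and *Gstm1* by 0.67 ± 0.14 (limma adjusted p = 0.00687), a call lost without Tc17 replicate 2 (0.53). *Gstk1* (0.52, limma adjusted p = 0.0187) and *Gstp1* (0.47, limma adjusted p = 0.0498) rose as well and, like *Gsto1*, are named after their values were seen. *Gstp1* no longer passed with no filter, with median centring (0.40) or in 3 of the 4 analyses that leave out an array (0.31 to 0.52). In 3 such analyses *Gstk1* (0.46 to 0.56) and *Gsto1* (-0.50 to -0.33) did not pass either, and *Gsto1* also failed with an intensity trend. The enzymes that make and recycle glutathione differed little, with *Gclc* at -0.16, *Gclm* at 0.08 and the reductase *Gsr* at 0.01 (-0.06 with median centring), and none of these passed.

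Regulators and targets of NRF2 did not move together. *Nfe2l2*, which encodes NRF2, was at 5.61 and 5.56 in CTLs and at 5.61 and 5.63 in Tc17 cells (0.03 ± 0.13, limma adjusted p = 0.911, and -0.03 with median centring), and *Keap1* differed by 0.12. Of 14 tested genes, repressors included, 2 rose and 2 fell. *Nqo1*, on the same list, was under the filter level and was not tested. *Bach2*, a repressor that keeps T cells from effector fates and can occupy similar DNA elements, was at 6.33 and 6.22 in CTLs and at 7.54 and 7.81 in Tc17 cells (1.40 ± 0.14, limma adjusted p = 6.19e-05). *Fth1*, the ferritin heavy chain that stores iron, rose by 1.07 ± 0.13 (limma adjusted p = 2.49e-04). *Hmox1*, the heme oxygenase gene, was at 4.60 and 4.16 in CTLs and at 3.65 and 3.61 in Tc17 cells (-0.75 ± 0.16, limma adjusted p = 0.00747), and *Abcc1*, an exporter of glutathione conjugates, fell too (-0.59 ± 0.13, limma adjusted p = 0.0101). The call of *Hmox1* was lost without CTL replicate 1 (-0.53) and that of *Abcc1* without Tc17 replicate 1 (-0.50).

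NADPH drives both glutathione and thioredoxin reductases. Of 10 tested genes on the list for its supply, *Idh1*, the cytosolic isocitrate dehydrogenase, rose by 1.07 ± 0.15 (limma adjusted p = 7.67e-04) and *Me2* by 0.63 ± 0.13 (limma adjusted p = 0.00651), and none fell. *Me2* encodes a mitochondrial malic enzyme that works mainly with NAD, so it is not a chief source of NADPH. *Idh1* was at 4.05 and 3.86 in CTLs and at 5.21 and 4.84 in Tc17 cells. The pentose phosphate enzyme gene *Pgd* differed by -0.03 (limma adjusted p = 0.911). *G6pdx*, on the same list, had no probe set of its own and was not tested. *Me2* was lost without CTL replicate 1 (0.56).

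Genes that make superoxide or peroxide split within the same enzyme complex. *Cyba*, the membrane subunit p22phox, averaged 8.53 ± 0.02 in CTLs and 7.96 ± 0.06 in Tc17 cells (SD, n = 2 each), with no overlap (-0.57 ± 0.13, limma adjusted p = 0.0104). *Rac2*, the GTPase that activates the oxidase and also steers the cytoskeleton, was at 9.31 and 9.19 in CTLs and at 10.03 and 10.01 in Tc17 cells (0.77 ± 0.13, limma adjusted p = 0.00198). The cytosolic subunit gene *Ncf4* was higher (0.48 ± 0.14, limma adjusted p = 0.0353), and *Xdh*, xanthine dehydrogenase, was 2.10-fold lower in Tc17 cells (-1.07 ± 0.15, limma adjusted p = 6.56e-04). Leaving out CTL replicate 2 (-0.55) or Tc17 replicate 2 (-0.52) ended the call of *Cyba*. *Ncf4* was lost without CTL replicate 2 (0.35), Tc17 replicate 1 (0.47) or Tc17 replicate 2 (0.49), and with median centring.

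GPX1, GPX4 and TXNRD1 are selenoproteins, whose selenocysteine is inserted by a dedicated machinery. Of 8 tested genes on a list for selenoprotein synthesis, 1 was called lower and 0 higher, against 7.44% and 8.22% of all genes tested. The list is not made up of dedicated genes only, since *Rpl30* (-0.34) encodes a ribosomal protein. Its 8 values ran from -0.42 to -0.14, and a shift of the list as a whole was not tested. Over all genes tested the median was 0.02, and the share below 0 was not counted, so no shift is read from these signs. Of the 8, only *Trnau1ap*, which binds the selenocysteine tRNA, was called (-0.42 ± 0.13, limma adjusted p = 0.0481). That call was lost whichever array was left out (-0.50 to -0.34), with no filter, with a block for replicate number, with an intensity trend and over all rows.

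Of 10 tested genes around *Txnip*, *Foxo1* rose and none fell. *Foxo1*, a forkhead transcription factor of naive and memory T cells, was at 6.26 and 6.16 in CTLs and at 7.63 and 7.89 in Tc17 cells, which is 2.92-fold higher (1.55 ± 0.14, limma adjusted p = 3.06e-05). *Mlxip* and *Mlx*, which encode the glucose-sensing pair MondoA and MLX that activates *Txnip*, differed by -0.43 (limma adjusted p = 0.130) and 0.09 (limma adjusted p = 0.766). *Arrdc4*, a relative of *Txnip* under the same pair, differed by -0.10 (limma adjusted p = 0.750), and *Slc2a1*, the glucose transporter that TXNIP restrains, by 0.00 (limma adjusted p = 0.996, and -0.06 with median centring), with unequal Tc17 arrays of 9.38 and 9.83. These 4 did not pass and were named after their values were seen.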

How the data were processed

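RNA from 2 CTL and 2 Tc17 cultures was amplified, labelled with biotin and hybridised to 1 array each, per the labels. The authors deposited RMA values, taken as log2 from their range of 1.18 to 13.70. Version and settings of RMA: not given in the sources used here. RMA equalises the distributions of the arrays, so a change common to all transcripts would be lost, and background shrinks differences of dim genes.

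Of 35557 rows, 21789 carried a single gene symbol, and the probe set with the highest mean stood for each of 19938 genes. Genes under the 25th percentile (2.59) were dropped. Tc17 was set against CTL with limma 3.58.1 (R 4.3.3), without a replicate block, two-sided, Benjamini-Hochberg over 14953 genes, threshold 0.05, and the code was tested on simulated data. The number of arrays limits precision. Members and lists were chosen with earlier results of these data known. Named genes are all members and, per list, up to 2 called genes with the largest increase and 2 with the largest decrease. Alternatives were other filters, moderation, scaling, probe set rules, all rows, a replicate block and each array left out. The dimmest probe set per gene was added after the data were seen. Protein sequences were not used here. Plots used Python 3.11.15 and matplotlib 3.10.9.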

Additional observations from a re-analysis of the deposited data

How the results depend on the processing

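Of 582 values of the 10 members and 35 list genes under 13 alternatives, 497 kept direction and side of the threshold, 65 lost and 7 gained a call, and 13 reversed, all of genes that were not called. With median centring *Gpx1* was -0.0295, *Gsr* -0.0562, *Nfe2l2* -0.0318 and *Slc2a1* -0.0631, and with cyclic loess *Pgd* was 0.0248. When an array was left out, *Gpx1* ranged from -0.0463 to 0.117, *Gclm* from -0.016 to 0.182, *Gsr* from -0.129 to 0.146, *Mlx* from -0.0739 to 0.252, *Arrdc4* from -0.333 to 0.123 and *Slc2a1* from -0.224 to 0.227. The replicate block gave 2 members higher and 1 lower (1213 genes higher and 1109 lower in all). Among these members and list genes the block lost the call of *Trnau1ap* and no other. Same-numbered arrays did not deviate together (correlation 0.02 across genes). A test of every row, with 35557 tests in place of 14953, gave 1 member higher and 0 lower (*Txnip* higher), 4 redox list genes higher and 0 lower, and 419 genes higher and 265 lower. An intensity trend gave 2 members lower. Leaving out an array gave 1 to 2 members higher and 0 to 2 lower, 5 to 8 list genes lower, and 834 to 948 genes higher and 587 to 976 lower. The *Txnrd1* to *Txn1* ratio changed sign with cyclic loess (0.0062) and ranged from -0.15 to 0.13 when an array was left out. The cause of these shifts was not tested. A fit without an array assumes that the lone array varies like the other group. No group of 2 arrays was tested for outliers.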
